A study of Mus musculus with 9 samples.

Results

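The Gadd45 family consists of 3 genes, Gadd45a, Gadd45b and Gadd45g, and was followed in mouse liver under short-term dietary restriction. The members were the rows carrying these 3 symbols, among 5608 genes listed in the TPM table (a relative transcript level corrected for transcript length). RNA came from whole liver of wt C57BL/6 J mice, 3 mice per group and 1 library per mouse. FED mice had standard diet at all times. Intermittently fasted (IF) mice went without food for 24 h, 2 times a week, with refeeding in between. FMD mice received a calorie-reduced fasting-mimicking diet for 3 days. In the study's design, mice were killed the day after the last fast or diet day. In FMD vs IF, the kind of restriction and its length therefore cannot be told apart. The age of the mice is not given in the sources used here, and the libraries are numbered 1 to 3, except in FMD, where the numbers are 1, 2 and 4.

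GADD45 proteins are small, acidic, mostly nuclear proteins without enzymatic activity, which act by binding other proteins. They bind and activate the MAP kinase kinase kinase MEKK4 upstream of p38 and JNK, bind PCNA, p21 and the CDK1-cyclin B complex in growth arrest, and help recruit TET, TDG and excision repair enzymes to DNA that is being demethylated or repaired. The genes respond to stress through different routes: Gadd45a is a classical p53 target that is also induced by ATF4, Gadd45b responds to TGF-beta and NF-kB and is an early gene of liver regeneration, and Gadd45g responds to cytokines. In liver, Gadd45b and Gadd45g are known as genes of fasting.

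Across the diets the family split. Gadd45b and Gadd45g were low in FED livers and rose in both IF and FMD livers, whereas Gadd45a passed the test in no comparison and stood high in a single FMD liver. Gadd45b rose 7.07-fold in IF and 25.4-fold in FMD as a ratio of mean TPM, and Gadd45g 8.84-fold and 16.5-fold. Gadd45b was also higher in FMD than in IF livers, by 3.60-fold. After the scaling of libraries described below, the ratios against FED were 5.80 and 17.6 for Gadd45b and 7.36 and 11.5 for Gadd45g. Scaled Gadd45b was 3.04-fold higher in FMD than in IF livers.

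Because Gadd45b and Gadd45g moved together and Gadd45a did not, the 250 bases before each gene's start are shown, from RefSeq with build GRCm38.p6, 5′ to 3′ on the strand of the gene. Gadd45a lies on the minus strand (chr6:67037408-67037657), Gadd45b on the plus strand (chr10:80929841-80930090) and Gadd45g on the plus strand (chr13:51846425-51846674). Capitals mark letters matching the CCAAT box (CCAAT), the E-box (CACGTG), the TATA box (TATAAA), the octamer (ATGCAAAT) or the C/EBP-ATF site (TGATGNAA) on either strand.
Gadd45a: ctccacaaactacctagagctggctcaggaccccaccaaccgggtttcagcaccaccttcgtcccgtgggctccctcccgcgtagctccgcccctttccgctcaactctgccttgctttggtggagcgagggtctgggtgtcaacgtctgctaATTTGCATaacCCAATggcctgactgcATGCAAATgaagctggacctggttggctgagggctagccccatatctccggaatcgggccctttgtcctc
Gadd45b: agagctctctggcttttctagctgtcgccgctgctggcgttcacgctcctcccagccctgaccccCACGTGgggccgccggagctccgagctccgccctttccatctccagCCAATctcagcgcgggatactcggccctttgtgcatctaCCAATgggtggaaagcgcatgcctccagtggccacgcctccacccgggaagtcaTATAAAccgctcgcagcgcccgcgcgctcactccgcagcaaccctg
Gadd45g: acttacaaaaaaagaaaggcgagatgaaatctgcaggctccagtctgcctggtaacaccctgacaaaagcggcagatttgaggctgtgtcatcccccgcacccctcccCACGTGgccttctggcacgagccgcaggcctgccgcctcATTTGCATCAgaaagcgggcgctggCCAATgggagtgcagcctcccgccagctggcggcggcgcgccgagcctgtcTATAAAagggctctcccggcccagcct

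Gadd45b and Gadd45g each held 1 E-box and 1 TATA box, and Gadd45a held neither. The E-box is in 6.02% and the TATA box in 12.4% of 32851 mouse promoters of the same length. The TATA box began 46 bases before the start of Gadd45b and 27 bases before that of Gadd45g. The E-boxes lay inside a run of 10 bases, ccccacgtgg, that both genes share and that 0.11% of all promoters hold. Gadd45a and Gadd45b also share a run of 10 bases, agctccgccc (0.91% of promoters), and the longest run shared by Gadd45a and Gadd45g was 8 bases on the same strand and 10 on opposite strands, so the length of the run is not particular to one pair. These runs were picked as the longest that each pair shares, so their percentages do not measure how unusual the sharing is. All 3 promoters held a CCAAT box, found in 33.8% of promoters, with 2 copies in Gadd45b.

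The octamer, present in 1.6% of promoters, occurred 2 times in Gadd45a and once in Gadd45g, where it overlaps the C/EBP-ATF match (3.45% of promoters). A p53 half-site, searched by its name's usual 10-base pattern and not capitalised above, matched at bases -40 to -31 of Gadd45a and not in the others, against 7.13% of promoters. None of the 3 windows held the letters of an AP-1 site (TGACTCA, 4.46%), CRE (TGACGTCA, 1.55%), FoxO site (GTAAACA, 3.17%), STAT site (TTCNNNGAA, 7.02%) or NF-kB site (3.9%). GC content was 59.2% in Gadd45a, 65.2% in Gadd45b and 62.0% in Gadd45g, against a median of 52.4% over all promoters, and CpG numbers were 11, 22 and 16 against a median of 6. These matches describe letters in the sequence, and binding to them was not measured.

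Of the listed genes, 4665 had a mean of at least 1 TPM over the 9 libraries and were tested, and all 3 members were among them. Gadd45b averaged 0.920 TPM in FED livers and passed this filter through its levels in the diet groups. The depth of the libraries is unknown, because the values are TPM. Of the total TPM of a library, the listed genes made up 26.3% to 29.3% in FED, 32.9% to 34.9% in IF and 34.9% to 43.0% in FMD mice. The median tested gene was higher by 0.24 on the log2 scale in IF than in FED livers, by 0.48 in FMD than in FED livers and by 0.24 in FMD than in IF livers. Results were therefore repeated on scaled TPM, in which each library is divided by its median ratio to the geometric mean library, so that these medians come to about 0. On the values as deposited, FMD replicate 1 stood apart, with 131 genes (2.81%) more than 2-fold above the highest other library. Any other library had at most 2 such genes. This count was not made on scaled TPM. Results are also given without FMD replicate 1. In whole tissue, fewer cells of a type and less RNA per cell cannot be told apart. None of the 12 hepatocyte markers was analysed here. Apoe, an apolipoprotein made in large amounts by hepatocytes, stood at 17019 to 27112 TPM in the 9 libraries. Its mean was 17834 TPM for FED livers, against 26193 for IF and 25559 for FMD livers. Apoc1 had means of 12160, 15858 and 10920 TPM in the same order, and Hpx of 5464, 3823 and 3922 TPM. Hpx spread widely among FED libraries, from 3340 to 7485 TPM. These genes were looked up after the values were seen, and their means did not move together.

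Gadd45b (NCBI gene 17873) was at 0.71, 0.96 and 1.09 TPM in FED libraries 1, 2 and 3. It was at 7.81, 6.82 and 4.88 TPM in IF libraries 1, 2 and 3, and at 19.63, 31.82 and 18.76 TPM in FMD libraries 1, 2 and 4. The 3 groups did not overlap in any pairing, and their order was FED, IF, FMD. Group means were 0.920 ± 0.193, 6.50 ± 1.49 and 23.4 ± 7.30 TPM (SD, n = 3 each). On the log2(TPM + 1) scale, limma gave a rise of 1.95 (SE 0.21, 95% interval 1.49 to 2.42, adjusted p = 0.000323) for IF vs FED. FMD vs FED gave 3.63 (SE 0.21, 3.17 to 4.10, adjusted p = 3.14e-06) and FMD vs IF 1.68 (SE 0.21, 1.22 to 2.15, adjusted p = 0.00378), all in 1 limma fit. On this scale the pseudocount of 1 understates the change of a gene below 1 TPM, which is why the ratios of means are larger. After scaling, Gadd45b rose by 1.81, 3.23 and 1.42 in the same comparisons (limma adjusted p = 0.00108, 3.19e-05 and 0.0168), again without overlap between groups.

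Gadd45g (NCBI gene 23882) was at 1.87, 3.09 and 3.50 TPM in FED libraries, and reached 25.08, 13.07 and 36.60 TPM in IF libraries. FMD libraries held 38.29, 41.89 and 59.30 TPM. Every IF and FMD library lay above every FED library, while the highest IF and the lowest FMD library were close. Means were 2.82 ± 0.848 in FED, 24.9 ± 11.8 in IF and 46.5 ± 11.2 TPM in FMD (SD, n = 3 each). Gadd45g rose by 2.68 on the log2 scale in IF vs FED (SE 0.32, 95% interval 1.97 to 3.38, limma adjusted p = 0.000444) and by 3.64 in FMD vs FED (SE 0.32, 2.93 to 4.34, limma adjusted p = 3.3e-05). For FMD vs IF the log2 difference was 0.96 (SE 0.32, 0.26 to 1.66), 1.87-fold in mean TPM, which did not pass after adjustment (limma adjusted p = 0.0779, unadjusted p = 0.0122). After scaling, the FMD and IF libraries of Gadd45g overlapped and the difference was 0.69 (limma adjusted p = 0.276). The order of IF and FMD was thus not called, and a missed threshold does not show equal levels.

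Gadd45a (NCBI gene 13197) was at 1.66, 3.20 and 4.95 TPM in FED and at 2.22, 2.54 and 3.28 TPM in IF libraries. FMD replicates 2 and 4 held 2.94 and 2.91 TPM, inside the FED range, whereas FMD replicate 1 held 27.44 TPM. The groups overlapped in all 3 pairings. Mean TPM was 3.27 ± 1.65 in FED, 2.68 ± 0.544 in IF and 11.1 ± 14.2 in FMD livers (SD, n = 3 each), and the FMD median was 0.919 times the FED median. IF differed from FED livers by -0.15 on the log2 scale (SE 0.63, 95% interval -1.55 to 1.25, limma adjusted p = 0.873). FMD livers differed from FED livers by 0.91 (SE 0.63, -0.49 to 2.30, limma adjusted p = 0.215) and from IF livers by 1.06 (SE 0.63, -0.34 to 2.45, limma adjusted p = 0.237). Without FMD replicate 1, FMD vs FED came to -0.05 (limma adjusted p = 0.890) and FMD vs IF to 0.10 (limma adjusted p = 0.839). The interval for IF vs FED spans changes of more than 2-fold in both directions, so the test leaves a change of that size undecided.

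**Figure D1:**
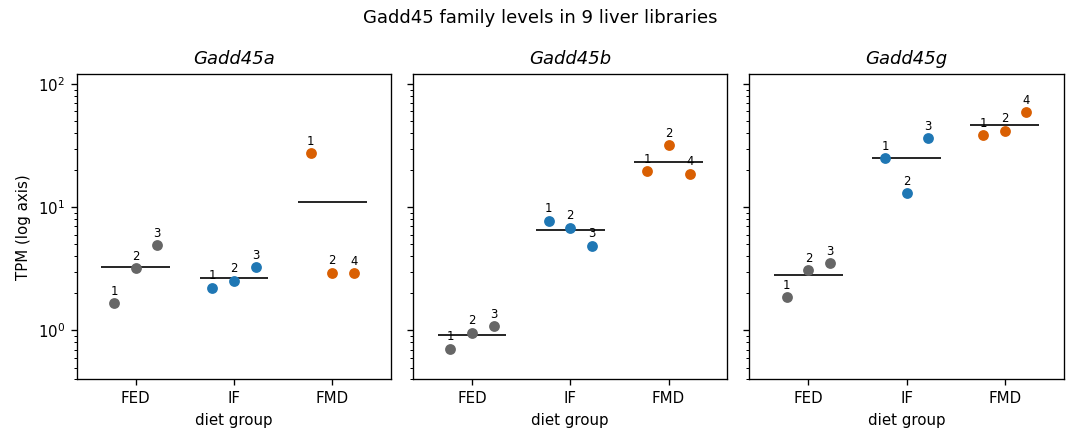
TPM on a log axis of Gadd45a, Gadd45b and Gadd45g in each library, by diet group, with the replicate number at each point and a bar at the group mean. Gadd45b and Gadd45g sit higher in every IF and FMD library than in any FED library, and Gadd45a is high in FMD replicate 1 alone, at 27.44 TPM.

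Of the 9 comparisons of a member, 5 were called (adjusted p under 0.05 and over 1.5-fold), all higher. These were the 3 of Gadd45b and those of Gadd45g in IF and FMD vs FED. Among all genes tested, 10.3% were called higher and 1.59% lower in IF vs FED. In FMD vs FED 35.5% were called higher and 1.61% lower, and in FMD vs IF 4.67% higher. The genes tested are part of each library, so these shares may not hold for the whole transcriptome. The 5 calls were also made on scaled TPM, where 3.72% of genes were called higher and 3.48% lower in IF, 5.50% higher and 5.67% lower in FMD, and 1.12% higher in FMD than in IF livers. They were also made without FMD replicate 1, where 11.1%, 23.1% and 2.92% of genes were called higher in the same order. Complete separation of the groups was frequent in this table: every IF library lay above every FED library in 53.8% of genes, every FMD above every FED library in 68.0% and every FMD above every IF library in 33.6% (23.2%, 18.5% and 12.7% on scaled TPM). IF vs FED and FMD vs FED share the same 3 FED libraries.

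**Figure D2:**
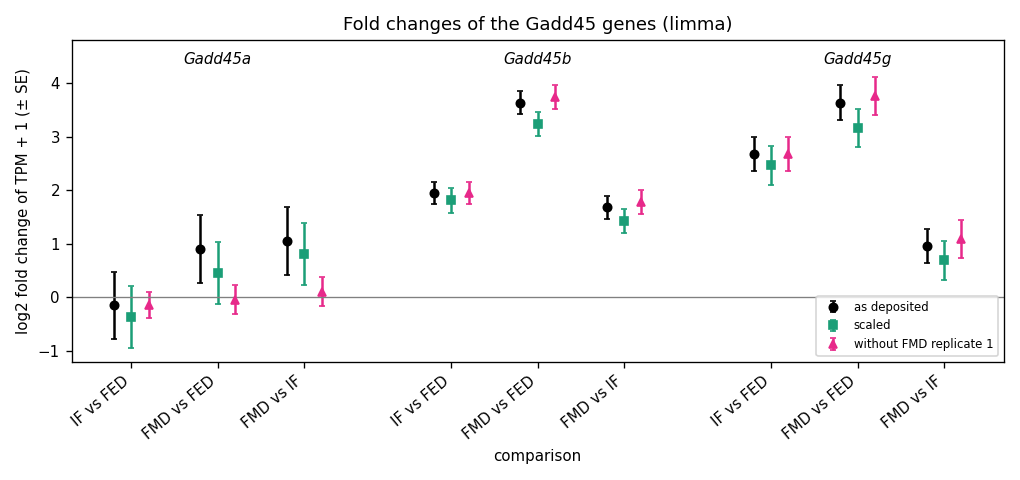
Log2 fold change of TPM + 1 with its SE for each member and comparison, from limma on the values as deposited (circles), after scaling (squares) and without FMD replicate 1 (triangles). Gadd45b and Gadd45g stay far above 0 against FED in all 3 versions, while Gadd45a in FMD vs FED moves from 0.91 to -0.05 when FMD replicate 1 is left out.

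TPM is corrected for length, so the members can also be compared with each other within a library. Their summed level was 4.24, 7.25 and 9.54 TPM in FED libraries. It came to 35.11, 22.43 and 44.76 TPM in IF libraries and to 85.36, 76.65 and 80.97 TPM in FMD libraries. In FED livers Gadd45a made up 45.1% ± 6.42 and Gadd45g 41.1% ± 3.92 of the sum, with Gadd45b at 13.8% ± 2.70 (SD, n = 3). In IF livers Gadd45g held 70.5% ± 11.8, Gadd45b 21.2% ± 9.79 and Gadd45a 8.33% ± 2.65 (SD, n = 3). The main transcript of the family was thus Gadd45g in all IF libraries, and in FMD libraries it was Gadd45g at 57.6% ± 14.4, followed by Gadd45b at 29.2% ± 10.6 (SD, n = 3). Gadd45a took 32.1% of the sum in FMD replicate 1 and 3.84% and 3.59% in FMD replicates 2 and 4.

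Set against the other genes tested, Gadd45g lay above 20.6% of genes by mean TPM in FED livers, 70.0% in IF livers and 78.1% in FMD livers. Gadd45b lay above 36.0% of genes in IF and 63.9% in FMD livers, and its FED rank is not given, because the filter on mean TPM largely fixes it. Across the 9 libraries, log2(TPM + 1) of Gadd45b and Gadd45g correlated at r = 0.919 (0.913 without FMD replicate 1), a description only, since the libraries share their diet groups. Gadd45a correlated with Gadd45b at r = 0.329 and with Gadd45g at 0.275 over the 9 libraries, and at -0.071 and 0.013 without FMD replicate 1.

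**Figure D3:**
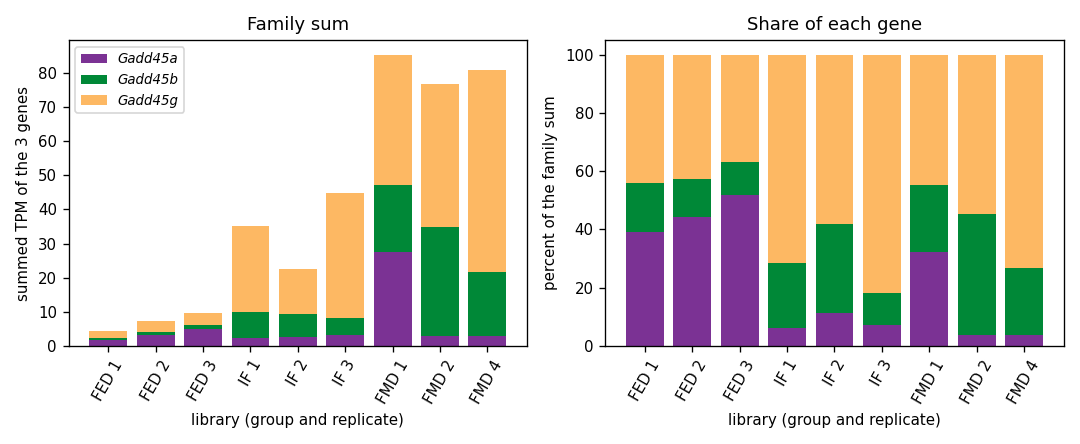
Summed TPM of the 3 genes (left) and percent of that sum from each gene (right) in each library. The sum stays under 10 TPM in FED and lies between 76.65 and 85.36 TPM in FMD libraries, and the Gadd45a band is wide in FED libraries and in FMD replicate 1.

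The genes with the most similar profiles over the 9 libraries were named for each member, by Pearson correlation of log2(TPM + 1). For Gadd45b they were Enc1 at r = 0.989, Rab3ip, Fbxo9, Ppp1r15b and Numa1. Of these, Enc1 kept its correlation on scaled TPM (0.989), whereas the scaled correlation was 0.534 for Rab3ip, 0.339 for Fbxo9, 0.210 for Ppp1r15b and 0.677 for Numa1. For Gadd45g they were Atxn7l3 at r = 0.982, Tram2, Ubl3, Hsd17b11 and the carnitine transporter Slc22a5 at 0.980, and on scaled TPM these 5 lay between 0.857 and 0.977. For Gadd45a they were Mrps18a at r = 0.972, the pyruvate kinase Pkm, Dpp9, Snrpd1 and Alcam. On scaled TPM the correlation was 0.357 for Mrps18a and lay between 0.810 and 0.923 for the others. As deposited, these 5 had correlations of 0.436 to 0.678 once FMD replicate 1 was left out. The profiles nearest to Gadd45a were thus also led by that library.

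In FMD replicate 1, Gadd45a as deposited was 5.54-fold above its highest other library and ranked 11 among all genes tested by this measure. On scaled TPM it was 19.2 in FMD replicate 1, against at most 5.87 in any other library. Several of the genes nearby in that ranking, named here after their values were seen, belong to the integrated stress response, the program run by the transcription factor ATF4. The serine synthesis enzyme Psat1 was at 24.83 TPM in FMD replicate 1 and at most at 1.30 TPM elsewhere. Ddit3, which encodes CHOP, was at 121 against at most 12.07 TPM, and the pseudokinase gene Trib3 at 83.77 against at most 17.27 TPM. Of 15 integrated stress response genes tested, 13 were highest in this library (10 on scaled TPM, 66.7%), as were 11 of 16 p53 targets (9 on scaled TPM, 56.2%), against 65.8% of all genes (21.2% on scaled TPM). Cd68, the 1 of 11 Kupffer and myeloid markers listed, was at 64.02 TPM in FMD replicate 1, against 3.14 to 12.16 TPM in the other 8 libraries. The part of these differences in the Gadd45a value was not tested.

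**Figure D4:**
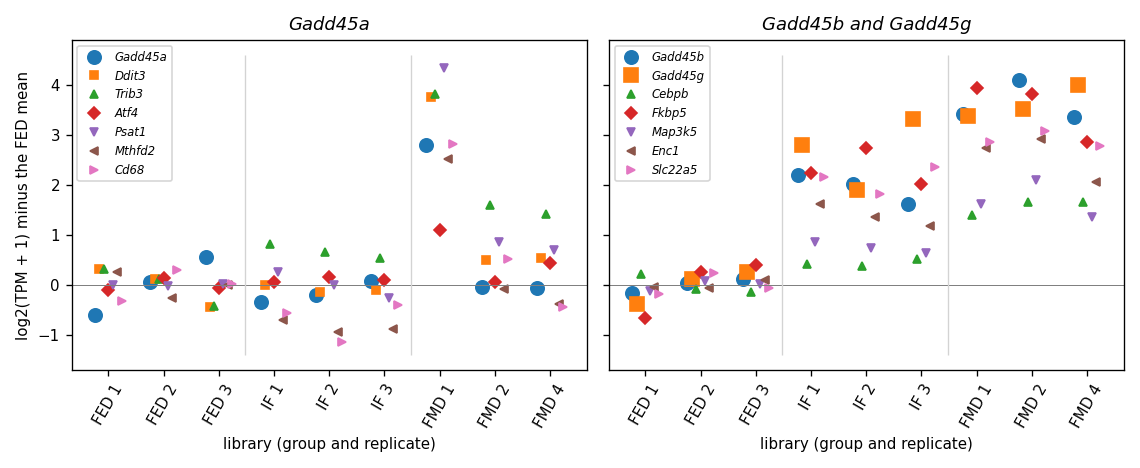
log2(TPM + 1) minus the FED mean in each library. The left panel shows Gadd45a with Cd68 and the integrated stress response genes Ddit3, Trib3, Atf4, Psat1 and Mthfd2. The right panel shows Gadd45b and Gadd45g with 5 genes named in the text. Gadd45a, Ddit3, Trib3, Psat1 and Cd68 peak in FMD replicate 1, and Gadd45b and Gadd45g are raised in all 6 IF and FMD libraries.

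Genes of routes that may induce the members were counted next, among them receptors and other components as well as targets. The activity of these routes in these livers was not measured. Over all genes tested, the median log2 fold changes were 0.24 in IF and 0.48 in FMD vs FED. Counts here and for the partner genes below are to be read against the shares of all genes called higher. These were 10.3% in IF and 35.5% in FMD vs FED, or 3.72% and 5.50% on scaled TPM. Several of the counts are near these shares, as with 3 of 7 or 1 of 7 genes. The lists overlap, so a gene can be counted more than once. Sesn2 and Ddit4 are in the p53 and integrated stress response lists, and Cdkn1a is in the p53, cell cycle and glucocorticoid lists. Of 16 p53 targets tested, 3 rose in IF vs FED, 8 rose in FMD vs FED and 0 were called in FMD vs IF, with median log2 fold changes of 0.36, 0.64 and 0.44. Aifm2, an oxidoreductase protecting from ferroptosis, rose by 1.49 in IF and 1.64 in FMD (limma adjusted p = 0.000156 and 2.49e-05). Ei24 rose by 0.96 and 1.13, the stress sensor gene Sesn2 by 1.42 in FMD and the mTORC1 inhibitor gene Ddit4 by 2.15 in FMD, or 1.24 without FMD replicate 1. Trp53inp1, the repair gene Xpc, the apoptosis gene Bid and Cdkn1a were also called in FMD. On scaled TPM the p53 counts were 2 in IF, and 3 higher and 1 lower in FMD, and without FMD replicate 1 they were 7 higher and 1 lower in FMD. Gadd45a itself, a textbook member of this target group, was not called in any comparison. The authors also count Gadd45b, which was called in every comparison, among p53 target genes. The part of p53 in its rise was not tested.

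Of 15 integrated stress response genes tested, none was called by limma in IF vs FED and 10 rose in FMD vs FED (5 on scaled TPM, 9 without FMD replicate 1). In IF vs FED, 1 was called lower on scaled TPM, and without FMD replicate 1 there were 1 higher, Trib3 at 0.68, and 3 lower, Chac1 at -0.80, Asns at -1.17 and Mthfd2 at -0.84. Their median log2 fold change was 0.00 in IF and 1.14 in FMD vs FED. Cebpb, a transcription factor of acute liver responses, rose by 1.57 in FMD (limma adjusted p = 2.13e-05), Trib3 by 2.28 (1.52 without FMD replicate 1) and Chac1, a glutathione-degrading enzyme, by 1.21. Atf4 mRNA, looked up after its value was seen, differed by 0.54 in FMD and was not called.

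For Gadd45b, 7 genes of the NF-kB and TGF-beta routes were tested. None was called by limma in IF vs FED or FMD vs IF, and 3 of 7, near the share of all genes, rose in FMD vs FED, namely Tgfbr1, Tgfbr2 and the feedback inhibitor gene Smad7 at 0.76 (0 on scaled TPM, 1 without FMD replicate 1). Of 7 FoxO genes, 1 rose in IF, the insulin receptor gene Insr at 0.59, and 4 rose in FMD, among them Irs2 at 0.89 and Trib1 at 1.003, and none was called on scaled TPM. Of 10 immediate early genes, 2 rose in IF and 8 in FMD (1 and 4 on scaled TPM). Myc rose by 1.54 and 2.37, and Klf10 by 1.58 in FMD and by 1.22 in FMD vs IF.

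For Gadd45g, 9 genes of the cytokine route through gp130 and STAT3 were tested. In IF, 1 rose and 1 fell, and in FMD 3 rose and 1 fell (1 and 1 on scaled TPM in both). Socs3, the STAT3-induced inhibitor of cytokine signalling, rose by 1.06 in IF and 1.31 in FMD (limma adjusted p = 0.00600 and 0.000800). Lifr, the receptor of leukaemia inhibitory factor, fell by 2.22 on the log2 scale in IF (limma adjusted p = 0.000117) and fell by 2.61 in FMD (limma adjusted p = 1.16e-05). Of 12 glucocorticoid response genes, 6 rose in IF and 9 in FMD (4 and 7 on scaled TPM). Fkbp5, a chaperone induced by the glucocorticoid receptor, averaged 4.01 ± 1.74 TPM in FED livers, 23.7 ± 6.51 in IF and 57.6 ± 20.9 in FMD livers (SD, n = 3 each), and the clock gene Per1 rose by 2.08 and 2.62 on the log2 scale.

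Downstream, the kinases of the p38 and JNK branches were examined as partners of the family. Of 7 tested, 1 was called in IF and 3 in FMD, near the 10.3% and 35.5% of all genes called higher. Map3k5, which encodes ASK1, rose in IF by 0.75 (limma adjusted p = 0.0120) and in FMD by 1.70 (limma adjusted p = 7.41e-05). Its mean TPM was 4.93 ± 0.412 in FED, 8.97 ± 0.710 in IF and 18.7 ± 5.28 in FMD livers (SD, n = 3 each), and FMD exceeded IF by 0.95 (limma adjusted p = 0.0193), a call lost on scaled TPM (0.69, limma adjusted p = 0.0593). Map2k4 rose by 0.70 and Mapkapk2 by 0.66 in FMD vs FED, and their FMD vs IF differences of 0.14 and 0.13 were not called. On scaled TPM, 0 kinases were called in IF and 1, Map3k5, in FMD. Map3k4, the best-known kinase partner, was not analysed here.

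Of 3 cell cycle partners tested, 2 were called higher and 1 lower in IF, and 2 higher in FMD. Among all genes, 10.3% were called higher and 1.59% lower in IF, and 35.5% higher in FMD. Cdkn1a, the gene of the CDK inhibitor p21, was at 1.84 ± 0.558 TPM in FED and 14.6 ± 1.97 TPM in IF (SD, n = 3 each), and at 184.15, 49.10 and 8.68 TPM as the highest, middle and lowest value in FMD. It rose by 2.47 in IF (limma adjusted p = 0.0409, and 0.0651 on scaled TPM) and by 3.998 in FMD (limma adjusted p = 0.00197), or 2.97 without FMD replicate 1. Wee1, a kinase that inhibits CDK1, rose by 0.83 in IF, by 1.63 in FMD and by 0.80 in FMD vs IF. Of these, the FMD vs FED rise was also called on scaled TPM. The FMD vs IF rise of Wee1 was not called without FMD replicate 1. Ccnd1, encoding the G1 cyclin D1, fell by 1.42 in IF on the log2 scale (limma adjusted p = 0.0282) and differed by -0.11 in FMD. Without FMD replicate 1 the FMD vs FED difference was -0.72 and was called (limma adjusted p = 0.00364). In FMD vs IF, Ccnd1 differed by 1.31 (limma adjusted p = 0.0682). Without FMD replicate 1 that difference was 0.70 and was called (limma adjusted p = 0.0341).

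Among all genes, 10.3% were called higher in IF and 35.5% in FMD, the shares for both counts here. Among partners in demethylation and repair, with 5 genes tested, none was called in IF and 1 was called in FMD. The called gene was Tdg, the glycosylase that excises oxidised methylcytosine, at 0.77 (not called on scaled TPM or without FMD replicate 1). Of 4 other binding partners tested, the same 3 were called in IF and FMD, with Npm1, a nucleolar chaperone, at 0.85 and 1.20, the elongation factor gene Eef1a1 at 0.63 and 0.85, and the nuclear receptor gene Pparg at 1.10 and 0.85. On scaled TPM 1 of them was called in each diet, and without FMD replicate 1 Pparg was not called in FMD.

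**Figure D5:**
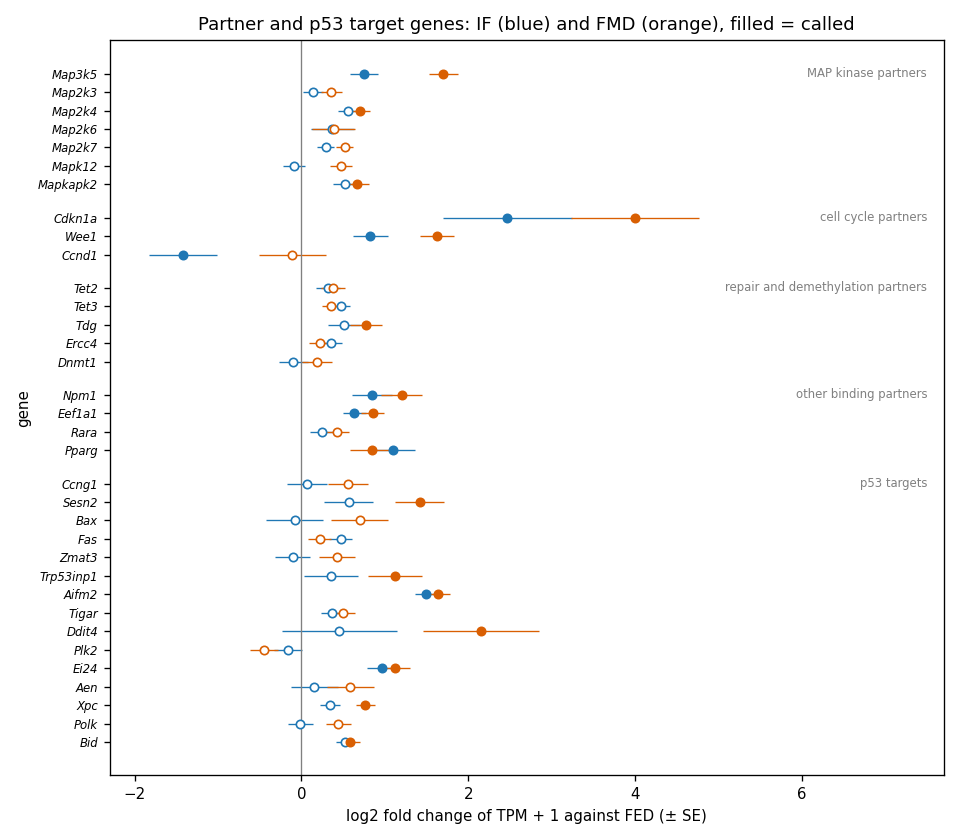
Log2 fold change of TPM + 1 against FED with its SE, for partner genes and p53 targets in IF (blue) and FMD (orange), with filled points for genes called. Cdkn1a at 2.47 and 3.998 and Map3k5 at 0.75 and 1.70 were called in both diets. Of the demethylation and repair genes Tdg alone was called, at 0.77 in FMD. Among all genes tested, 10.3% were called higher in IF and 35.5% in FMD.

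Markers of other liver cells were counted beside these values. Of 10 stellate cell markers, 3 were listed, and their summed TPM was 66.6 to 93.8 in FED, 122 to 160 in IF and 107 to 217 in FMD libraries. The sum was almost all Dcn, a matrix proteoglycan and the called one, at 0.86 in IF and 0.90 in FMD (0.58 and 0.35 on scaled TPM, not called). Col1a1 averaged 1.15, 0.94 and 0.91 TPM and Pdgfrb 1.67, 1.96 and 1.63 TPM in FED, IF and FMD livers, neither was called, and the list's median log2 fold change was 0.15 in IF and -0.05 in FMD vs FED. Krt19, the 1 of 6 cholangiocyte markers listed, was at 0.76 to 1.78, at 1.02 to 2.06 and 1.22 to 4.07 TPM in the libraries of FED, IF and FMD mice. No endothelial or lymphocyte marker was analysed here. The part of other cell types in the levels of Gadd45b and Gadd45g was not tested.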

How the data were processed

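Strand-specific, oligo-dT-selected libraries of liver RNA were sequenced by the authors on DNBSEQ. The deposited values are TPM, a unit in which the authors corrected each level for the length of the transcript and the size of the library, written with 2 decimals. The submitters' processing notes name mm39 and DESeq2, without a role, and the aligner and quantifier are not given in the sources used here. TPM depends on every other transcript, so levels are relative, and without counts no interval for counting error can be given.

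Libraries were grouped by title. limma 3.58.1 (R 4.3.3, trended eBayes, two-sided) was run on log2(TPM + 1) in 1 fit of the 9 libraries over genes averaging at least 1 TPM, with Benjamini-Hochberg adjustment. Calls needed an adjusted p under 0.05 and over 1.5-fold. The fit was also run on simulated data without a shift between libraries or an outlying library, so that run does not check those features. Motifs were searched in RefSeq promoters of 250 bases. Tables were made in pandas 2.3.3 with numpy 2.4.6 and figures in matplotlib 3.10.9, under python 3.11.15.

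The members and gene lists were chosen with earlier results of these data known. Named genes were the members, up to 3 genes per list and comparison with the smallest adjusted p, called genes of the partner and p53 lists, 5 most similar genes per member and called cell markers. Others are said to be chosen after their values were seen. Alternatives covered pseudocounts, filters, scaling, pairwise fits, the trend, the fold limit, a replicate block and leaving out each library. Fits combining scaling with FMD replicate 1 left out, or with the block, were added after seeing the data.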

Additional observations from a re-analysis of the deposited data

How the results depend on the processing

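Over 19 alternatives per comparison, the 3 calls of Gadd45b and the calls of Gadd45g in IF and FMD vs FED were made in every one, with log2 fold changes of 1.79 to 2.69, 3.23 to 4.50 and 1.42 to 1.82 for Gadd45b and of 2.35 to 3.06 and 3.14 to 4.02 for Gadd45g. Gadd45g in FMD vs IF ranged from 0.58 to 1.28 and was called only with the replicate block, at 1.003 (limma adjusted p = 0.0407, range over alternatives 0.0407 to 0.276). Gadd45a was called in none of them. Its sign turned in IF vs FED without FED replicate 3 (0.13, range without 1 library -0.45 to 0.13), in FMD vs FED without FMD replicate 1 (-0.046, range -0.046 to 1.39) and, with scaling and FMD replicate 1 left out, in FMD vs FED (-0.37) and FMD vs IF (-0.013).

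Of all genes, 553 were called in IF vs FED, 335 on scaled TPM and 1112 with no fold limit. In FMD vs FED 1733 were called, 520 on scaled TPM, 513 with FMD replicate 1 also left out, 626 on scaled TPM with the replicate block and 3135 with no fold limit, and 1158 to 2174 without 1 library. In FMD vs IF 240 were called, 104 on scaled TPM, 85 with FMD replicate 1 also left out, 24 in a pairwise fit, 772 with the replicate block, and 18 to 820 without 1 library (18 without IF replicate 2, 820 without FMD replicate 4). The cause was not tested. Same-numbered libraries deviated together at r = 0.00348 to 0.177, over 0.1 in 4 of 7 pairs. Differently numbered libraries were not compared, so these values cannot decide whether the numbers pair mice. The main fit used no block, and the block changed no other call of a member. Of the 5 most similar genes, scaled TPM shared 1 for Gadd45a and 1 for Gadd45b, and Spearman correlation shared 0, 0 and 1 for Gadd45a, Gadd45b and Gadd45g. Of 1254 list counts under alternatives, 1078 stayed within 1.5-fold, but these include counts of 0 that stayed at 0. Scaling moved 23 of the 66 list counts by more than that. The p53 targets called in FMD vs IF went from 0 to 6 with the replicate block.

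With 3 mice per group, unknown depth and part of each library listed, a missed threshold does not show equal levels. The pseudocount compresses changes of genes near 1 TPM, such as Gadd45b in FED livers.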
